A study of Homo sapiens with 16 samples.

Results

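The RNA of 10 genes of retinoic acid signalling and metabolism was followed, of 20356 genes counted, in PC3, a long-established line from a human prostate carcinoma. The genes were taken by symbol. They are the receptors RARA, RARB, RARG and RXRA, the binding protein CRABP2, the enzymes ALDH1A3, DHRS3 and CYP26B1, and the responsive genes RARRES1 and RAI2. They were chosen by their counts in DDX4-null and control monolayer cells, so their levels and differences in every comparison that uses those cells are a description without a test. Their p-values are given only between DDX4-null and control tumors, and counts of calls in other comparisons stand beside the share of all genes called, with nothing read from them. The study asked what DDX4, an RNA helicase known from germ cells, does in PC3 cells. It had 4 groups of 4 libraries: DDX4-null PC3 cells grown in monolayer, control PC3 cells grown in monolayer, xenograft tumors of DDX4-null PC3 cells, and xenograft tumors of control PC3 cells. Not given in the sources used here are the way the null line was made, whether it is 1 clone, the host animal and any pooling of tumors.

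Retinol is oxidised first to retinaldehyde and then to retinoic acid, the active form of vitamin A. Retinoic acid binds receptors of the RAR family, which sit on DNA as heterodimers with RXR and switch between corepressors and coactivators when the ligand arrives. CYP26 enzymes break retinoic acid down, and several genes of the pathway, RARB and the CYP26 genes among them, are classic targets of the receptors, which makes the pathway self-limiting. In prostate epithelium retinoids are known for promoting differentiation, and loss of RARB expression is a known feature of many carcinomas.

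Libraries held between 12204254 and 25443952 counts. Levels are counts per 1000000 after TMM scaling over the 16 libraries (CPM), given as mean ± SD of 4 libraries or library by library in the order of their replicate numbers. A library in which a gene has 0 counts allows up to 3 counts, or 0.11 to 0.265 CPM. DDX4 RNA gave no check of the labels: DDX4-null cells held 2, 4, 0 and 1 counts, control cells 0, 4, 1 and 5, DDX4-null tumors 3, 2, 2 and 4, and control tumors 5, 2, 3 and 3. Markers of PC3 cells were present in all libraries, with 5 epithelial genes summing to 848 to 1735 CPM, while KLK2 had 0 counts throughout. Tumor libraries also held RNA of other cells, and DDX4-null tumor 1 stood apart: 7 fibroblast genes summed to 10986 CPM there, against 1667 to 1918 CPM in the other 3 DDX4-null tumors, 1390 to 1892 CPM in control tumors, 45.0 to 58.1 CPM in DDX4-null cells and 23.8 to 31.4 CPM in control cells.

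The promoters of RARB, CYP26B1 and RAI2 are shown because these 3 genes had the highest DDX4-null to control ratios in monolayer. Each sequence is the 250 bases before a RefSeq start on GRCh38.p14, read 5′ to 3′ on the strand of the gene. RARB (start 1 of 4, chr3:25428013-25428262, plus strand), CYP26B1 (its single listed start, chr2:72147863-72148112, minus strand) and RAI2 (start 1 of 2, chrX:17860906-17861155, minus strand) read as follows, and capitals mark the only match to a searched repeat.
RARB: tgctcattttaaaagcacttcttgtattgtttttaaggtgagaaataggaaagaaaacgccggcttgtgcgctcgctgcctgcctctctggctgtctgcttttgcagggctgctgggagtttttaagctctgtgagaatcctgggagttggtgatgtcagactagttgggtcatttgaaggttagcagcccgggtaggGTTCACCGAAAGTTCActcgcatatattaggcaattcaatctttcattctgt
CYP26B1: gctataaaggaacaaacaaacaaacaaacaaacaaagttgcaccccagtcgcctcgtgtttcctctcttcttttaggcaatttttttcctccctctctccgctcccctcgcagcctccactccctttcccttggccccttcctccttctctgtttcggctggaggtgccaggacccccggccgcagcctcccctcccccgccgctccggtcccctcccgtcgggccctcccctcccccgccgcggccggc
RAI2: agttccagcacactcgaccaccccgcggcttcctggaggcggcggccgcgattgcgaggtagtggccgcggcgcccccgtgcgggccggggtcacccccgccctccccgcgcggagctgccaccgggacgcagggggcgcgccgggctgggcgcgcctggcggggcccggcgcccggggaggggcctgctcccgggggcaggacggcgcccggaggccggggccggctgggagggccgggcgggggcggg

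The search covered direct repeats of the receptor binding core on both strands, written as a core GGTCA or GTTCA, then 6, 3 or 2 bases of any kind, then GGTCA or GTTCA. Among 19 windows of the 10 genes, 1 held a match: the RARB window above, with 6 bases between the cores, 52 to 37 bases before the start. This repeat of the RARB promoter is a textbook retinoic acid response element. Of 35116 windows of all genes, 0.148% held the form with 6 bases between cores and 0.484% held any of the forms. No match was found in the other 18 windows, which says only that these letters are not there.

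In monolayer, DDX4-null cells held RNA of RARB and RAI2, which had 0 counts in all 4 control libraries, and more CYP26B1, CRABP2, RARA and RARG than control cells. DHRS3 and RXRA were lower in DDX4-null cells. ALDH1A3, the most abundant of the 10 per length, was lower by a small margin without overlap of the libraries, and RARRES1 stayed at a few counts per library in both groups.

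Among the receptors, RARB, which binds retinoic acid and is itself induced by it, had 17.9, 19.6, 19.9 and 21.4 CPM in DDX4-null cells against 0, 0, 0 and 0 CPM in control cells. Its 1455 counts in DDX4-null cells lay at least 412-fold above the floor of 3 counts over the 4 control libraries. RARA, the most widely expressed RAR, had 32.4, 33.3, 33.9 and 28.7 CPM in DDX4-null cells against 17.4, 20.4, 21.3 and 15.6 CPM in control cells, a log2 difference of 0.78 ± 0.12 (SE). After the median of chromosome 17 genes was taken off, this difference of RARA was 0.54. The lowest DDX4-null library was above the highest control library. RARG, an RAR known from skin and other epithelia, had 82.7, 71.6, 71.5 and 63.5 CPM in DDX4-null cells against 48.0, 55.8, 54.2 and 43.1 CPM in control cells, a log2 difference of 0.52 ± 0.11 (SE), again with no overlap. RXRA, the shared heterodimer partner, went the other way with 40.2, 26.5, 31.6 and 28.4 CPM in DDX4-null cells against 44.4, 54.2, 57.4 and 37.8 CPM in control cells. Its log2 difference was -0.61 ± 0.14 (SE), and DDX4-null cell library 1 lay above control cell library 4, so the groups overlapped.

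CRABP2, which carries retinoic acid to the nuclear receptors, had 76.8, 86.7, 81.8 and 67.6 CPM in DDX4-null cells against 37.5, 38.1, 41.2 and 33.7 CPM in control cells, a log2 difference of 1.05 ± 0.11 (SE). Every DDX4-null cell library was above every control library.

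Of the enzymes, CYP26B1, which hydroxylates and so inactivates retinoic acid, had 12.6, 7.51, 10.9 and 8.16 CPM in DDX4-null cells against 1.39, 1.79, 1.71 and 0.906 CPM in control cells, a log2 difference of 2.75 ± 0.22 (SE). DHRS3, which reduces retinaldehyde back to retinol, had 101, 112, 88.1 and 78.6 CPM in DDX4-null cells against 148, 157, 151 and 146 CPM in control cells, a log2 difference of -0.67 ± 0.11 (SE). Neither gene's groups overlapped. ALDH1A3, which makes retinoic acid from retinaldehyde, had 1294, 1182, 1323 and 1305 CPM in DDX4-null cells against 1392, 1456, 1443 and 1352 CPM in control cells. All DDX4-null cell libraries were below all control libraries, as for DHRS3. The log2 difference of ALDH1A3 was -0.14 ± 0.10 (SE), or -0.41 after the median of chromosome 15 genes was taken off.

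RAI2, a gene named for induction by retinoic acid, had 21.8, 26.7, 23.5 and 18.3 CPM in DDX4-null cells against 0, 0, 0 and 0 CPM in control cells, or 1640 counts against 0 and at least 465-fold over the floor. RARRES1, a retinoic acid receptor responder, had 1, 5, 2 and 1 counts in DDX4-null cells against 6, 3, 6 and 6 counts in control cells, too few for the filter on low counts. The quasi-likelihood fit of edgeR called 6 of the 9 genes that passed the filter higher and 2 lower, where 35.0% of all 13006 genes tested were called higher and 32.3% lower (67.3% in all). Without overlap of the libraries, 6 of these 9 genes were higher and 2 lower, where 31.0% of all genes tested were higher and 28.5% lower (59.4% in all). Since this contrast served to choose the genes, nothing is read from these counts.

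**Figure D1:**
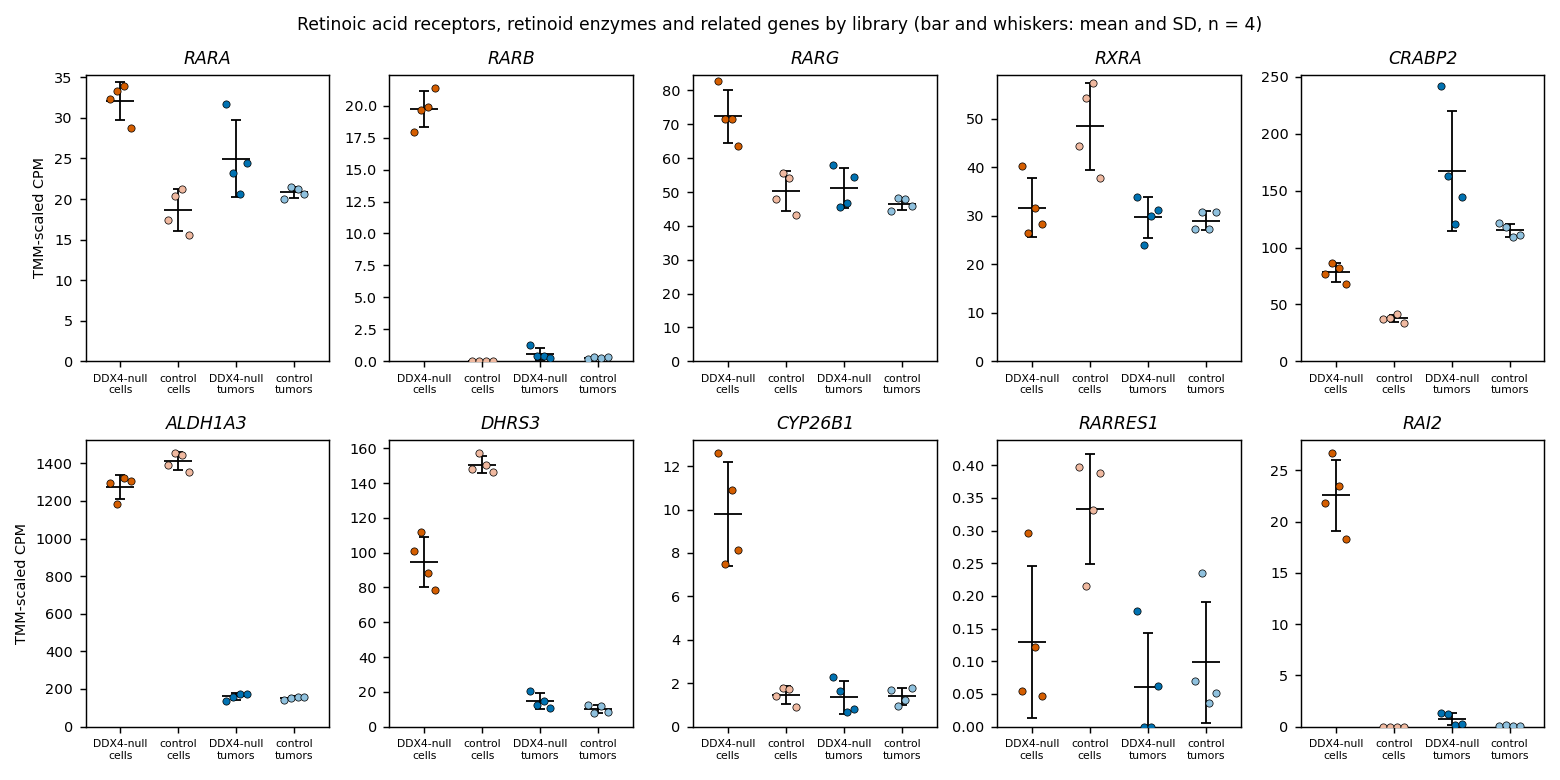
TMM-scaled CPM of each of the 10 genes (y axis, linear and starting at 0) in the 4 libraries of DDX4-null cells, control cells, DDX4-null tumors and control tumors. Points are libraries, and the bar and whiskers are mean and SD; RARB and RAI2 stand at 19.7 and 22.6 CPM in DDX4-null cells and at most 1.33 CPM in every other library.

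In tumors, none of the 7 genes that passed the filter was called between DDX4-null and control, where 2.09% of all 12942 genes tested were called, 0.981% higher and 1.10% lower. All 10 genes overlapped between the genotypes, while 12.6% of all genes tested had no overlap, with 5.59% of the tested genes higher and 7.02% lower. By edgeR's quasi-likelihood test 2 of the 7, CRABP2 and DHRS3, had an unadjusted p under 0.05, and DESeq2 called 1, CRABP2. RARB and RAI2, the genes with the widest differences in monolayer, had at most 14 and 22 counts in any tumor library.

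RARB had 14, 7, 7 and 4 counts in DDX4-null tumors against 2, 5, 8 and 7 counts in control tumors, that is 1.24, 0.378, 0.401 and 0.249 CPM against 0.140, 0.294, 0.292 and 0.355 CPM. DDX4-null tumor 1 was the highest and the other 3 lay within or near the control range. The mean difference of log2(CPM + 0.5) was 0.40, with p = 0.229 in an exact two-sided permutation test whose smallest possible p is 0.0286. Without DDX4-null tumor 1, which also held the most fibroblast RNA, the difference was 0.13. Between the tumors 0 of 7 fibroblast genes were called by edgeR, and of the other marker lists only the hair follicle keratins KRT25 and KRT71 were called, both lower in DDX4-null tumors. KRT25 had 0, 3, 0 and 0 counts in DDX4-null tumors against 9, 122, 330 and 22 in control tumors, and KRT71 had 0 counts in every DDX4-null tumor against 21, 115, 258 and 13 in control tumors. The part of RNA from other cells in the tumor comparison was not tested.

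RARA had 31.7, 23.2, 20.7 and 24.4 CPM in DDX4-null tumors against 20.0, 21.5, 21.2 and 20.6 CPM in control tumors, a log2 difference of 0.25 ± 0.12 (SE) with an adjusted p of 0.255 by edgeR. RARG averaged 51.2 ± 5.93 CPM in DDX4-null tumors and 46.6 ± 1.74 CPM in control tumors, with a log2 difference of 0.13 ± 0.09 (SE) and an adjusted p of 0.425 by edgeR. RXRA averaged 29.7 ± 4.18 CPM in DDX4-null tumors and 29.0 ± 2.02 CPM in control tumors, with a log2 difference of 0.03 ± 0.11 (SE) and an adjusted p of 0.903 by edgeR. None of these 3 receptors was called, and the sign of the RXRA difference turned with the scaling, to -0.04 on library totals.

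CRABP2 had 242, 163, 120 and 144 CPM in DDX4-null tumors against 122, 118, 110 and 111 CPM in control tumors. DDX4-null tumors 1, 2 and 4 were above all controls and tumor 3 was within their range. The log2 difference was 0.54 ± 0.17 (SE), with an adjusted p of 0.121 by edgeR and 0.0367 by DESeq2. A 4-group edgeR model of all 16 libraries gave an adjusted p of 0.0343. Its dispersion also comes from the cell libraries that served to choose the gene, so nothing is read from that value. Without DDX4-null tumor 1 the log2 difference of CRABP2 was 0.32, with an adjusted p of 0.134 by edgeR.

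DHRS3 had 20.7, 12.4, 14.9 and 10.8 CPM in DDX4-null tumors against 12.5, 7.59, 11.9 and 8.41 CPM in control tumors, a log2 difference of 0.53 ± 0.22 (SE) with an adjusted p of 0.2 by edgeR. Without DDX4-null tumor 1 the DHRS3 difference was 0.34. CYP26B1 had 2.30, 1.62, 0.687 and 0.810 CPM in DDX4-null tumors against 1.68, 0.941, 1.20 and 1.77 CPM in control tumors. The ranges of CYP26B1 covered each other, with a log2 difference of -0.08 ± 0.38 (SE), an adjusted p of 0.92 by edgeR, and a sign that turned when single libraries were left out. ALDH1A3 averaged 160 ± 18.8 CPM in DDX4-null tumors and 153 ± 7.23 CPM in control tumors, with a log2 difference of 0.06 ± 0.10 (SE) and an adjusted p of 0.74 by edgeR.

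RAI2 had 15, 22, 3 and 4 counts in DDX4-null tumors against 1, 3, 1 and 1 counts in control tumors, or 1.33, 1.19, 0.172 and 0.249 CPM against 0.0701, 0.176, 0.0365 and 0.0507 CPM. DDX4-null tumors 1 and 2 stood above the rest, and tumor 3 fell within the control range. The scaled counts gave a ratio of 9.08, with a counting interval of 3.85 to 26.1 at 95%. The mean difference of log2(CPM + 0.5) was 0.94, with p = 0.0571 in the exact two-sided permutation test. Without DDX4-null tumor 1 this mean difference was 0.71. By edgeR the adjusted p of RAI2 was 0.0595 with no filter on low counts. The 4-group edgeR model of all 16 libraries called RAI2 between the tumors. There the gene passed the filter through its counts in DDX4-null cells, which served to choose it, so nothing is read from that call. RARRES1 had 2, 0, 0 and 1 counts in DDX4-null tumors against 1, 4, 1 and 1 counts in control tumors, with a mean difference of log2(CPM + 0.5) of -0.10 and p = 0.514 in the exact two-sided permutation test.

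**Figure D2:**
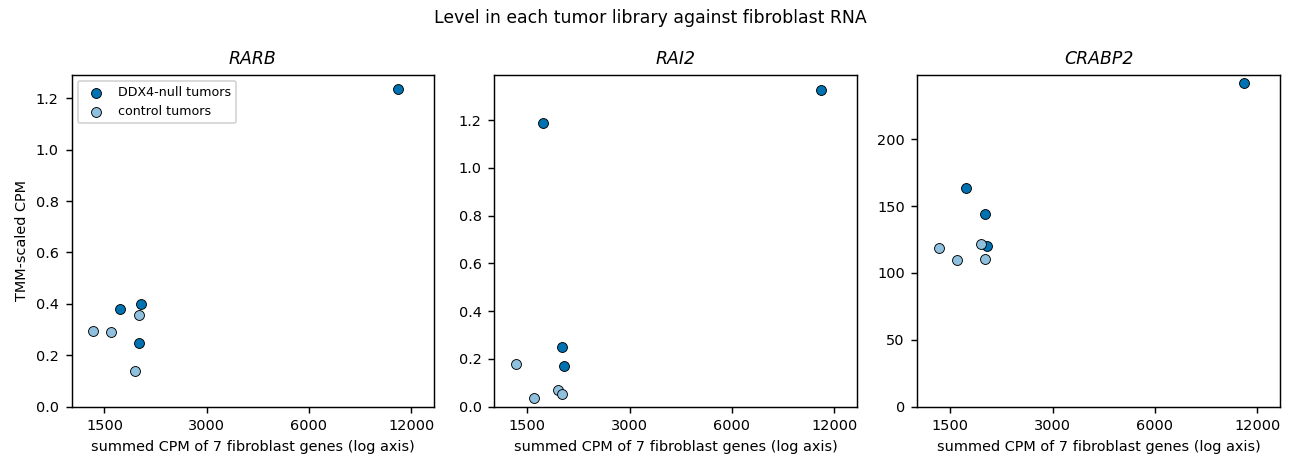
TMM-scaled CPM of RARB, RAI2 and CRABP2 in each of the 8 tumor libraries (y axis) against the summed CPM of 7 fibroblast genes in the same library (x axis, log scale). Points are libraries of DDX4-null and control tumors; DDX4-null tumor 1, at 10986 CPM of fibroblast genes, is the highest point for all 3 genes, and DDX4-null tumor 2 is next for RAI2 at 1.19 CPM. DDX4-null tumor 1 was also the highest tumor library for RARA, RARG, RXRA, CYP26B1 and DHRS3, but not for ALDH1A3 or RARRES1. Its epithelial and leukocyte sums, 1645 and 69.9 CPM, were the highest of the tumors, but its endothelial and muscle sums were not. It had the fewest counts of all libraries, 12204254, and the cause was not tested.

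Between tumors and monolayer cells, ALDH1A3 and DHRS3 were lower in tumors of both genotypes, and CRABP2 was higher. RARB, RAI2 and CYP26B1 were lower in DDX4-null tumors than in DDX4-null cells. In bulk RNA, fewer cells of a type and less RNA per cell cannot be told apart.

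ALDH1A3 was lower by a log2 difference of -2.98 ± 0.12 (SE) in DDX4-null tumors against DDX4-null cells, and by -3.20 ± 0.09 (SE) in control tumors against control cells. No tumor library was above 174 CPM and no cell library was below 1182 CPM. DHRS3 was lower by a log2 difference of -2.69 ± 0.18 (SE) in DDX4-null tumors against DDX4-null cells, and by -3.89 ± 0.14 (SE) in control tumors against control cells. CRABP2 was higher by a log2 difference of 1.11 ± 0.17 (SE) in DDX4-null tumors against DDX4-null cells, and by 1.62 ± 0.09 (SE) in control tumors against control cells. The groups did not overlap for these 3 genes in either genotype.

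RARB was lower in DDX4-null tumors than in DDX4-null cells by a log2 difference of -5.22 ± 0.29 (SE), or -5.78 without DDX4-null tumor 1, and RAI2 by -4.98 ± 0.36 (SE). CYP26B1 was lower in DDX4-null tumors than in DDX4-null cells by -2.88 ± 0.32 (SE) on the log2 scale. Control tumors held 22 counts of RARB and 6 counts of RAI2, where control cells held 0, which is at least 5.85-fold and at least 1.6-fold above the floor over the group. CYP26B1 averaged 1.40 ± 0.395 CPM in control tumors and 1.45 ± 0.403 CPM in control cells, and the sign of this small difference turned on library totals. RARB, RAI2 and CYP26B1 were at most 2.30 CPM in any tumor library. RXRA was lower in control tumors than in control cells by a log2 difference of -0.73 ± 0.12 (SE), and differed by -0.08 ± 0.14 (SE) between DDX4-null tumors and DDX4-null cells, or by 0.31 after the median of chromosome 9 genes was taken off. RARA differed by -0.35 ± 0.13 (SE) between DDX4-null tumors and DDX4-null cells and by 0.16 ± 0.11 (SE) between control tumors and control cells on the log2 scale, the second being 0.33 on library totals. RARG differed by -0.49 ± 0.11 (SE) between DDX4-null tumors and DDX4-null cells and by -0.10 ± 0.10 (SE) between control tumors and control cells, and the second turned to 0.06 on library totals. The differences of RXRA, RARA and RARG were smaller than those of ALDH1A3 and DHRS3. RARRES1 had 3 counts in DDX4-null tumors against 9 in DDX4-null cells, and 7 counts in control tumors against 21 in control cells.

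Of the tested genes, edgeR called 1 higher and 7 lower of 9 between DDX4-null tumors and DDX4-null cells, where 34.6% of all genes tested were called higher and 35.3% lower (69.8% in all). It called 1 higher and 3 lower of 7 between control tumors and control cells, where 33.9% were called higher and 31.0% lower (64.9% in all). Without overlap were 1 higher and 6 lower of the 9 in the DDX4-null comparison, where 30.5% of all genes tested were higher and 32.9% lower (63.4% in all), and 1 higher and 3 lower of the 7 in the control comparison, where 29.9% were higher and 28.3% lower (58.2% in all). Both comparisons share cell libraries with the contrast that chose the genes, so nothing is read from these counts. Markers of other cells moved with the setting. Of the fibroblast genes 6 of 7 rose in DDX4-null tumors against DDX4-null cells, and 7 of 7 in control tumors against control cells. Of the leukocyte genes 3 of 3 tested rose in DDX4-null tumors and 3 of 3 in control tumors, and their 6 genes summed to 13.0 to 69.9 CPM in DDX4-null tumors, 14.1 to 31.0 CPM in control tumors and at most 1.94 CPM in any cell library. Of the endothelial and pericyte genes 1 of 3 tested rose in DDX4-null tumors and 4 of 5 in control tumors. Skeletal muscle genes rose as well, 1 of 1 tested in DDX4-null tumors and 4 of 4 in control tumors, with sums of 5.21 to 266 CPM in DDX4-null tumors, 72.2 to 256 CPM in control tumors and at most 0.215 CPM in any cell library. Of the skin and hair follicle genes 0 of 1 tested rose in DDX4-null tumors and 2 of 3 in control tumors, while of the adipocyte genes 1 of 2 tested fell in DDX4-null tumors and 2 of 2 in control tumors. The part of these cells in the differences between settings was not tested. The 5 epithelial genes summed to 1184 to 1645 CPM in DDX4-null tumors against 1431 to 1735 CPM in DDX4-null cells, and to 1214 to 1367 CPM in control tumors against 848 to 983 CPM in control cells.

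**Figure D3:**
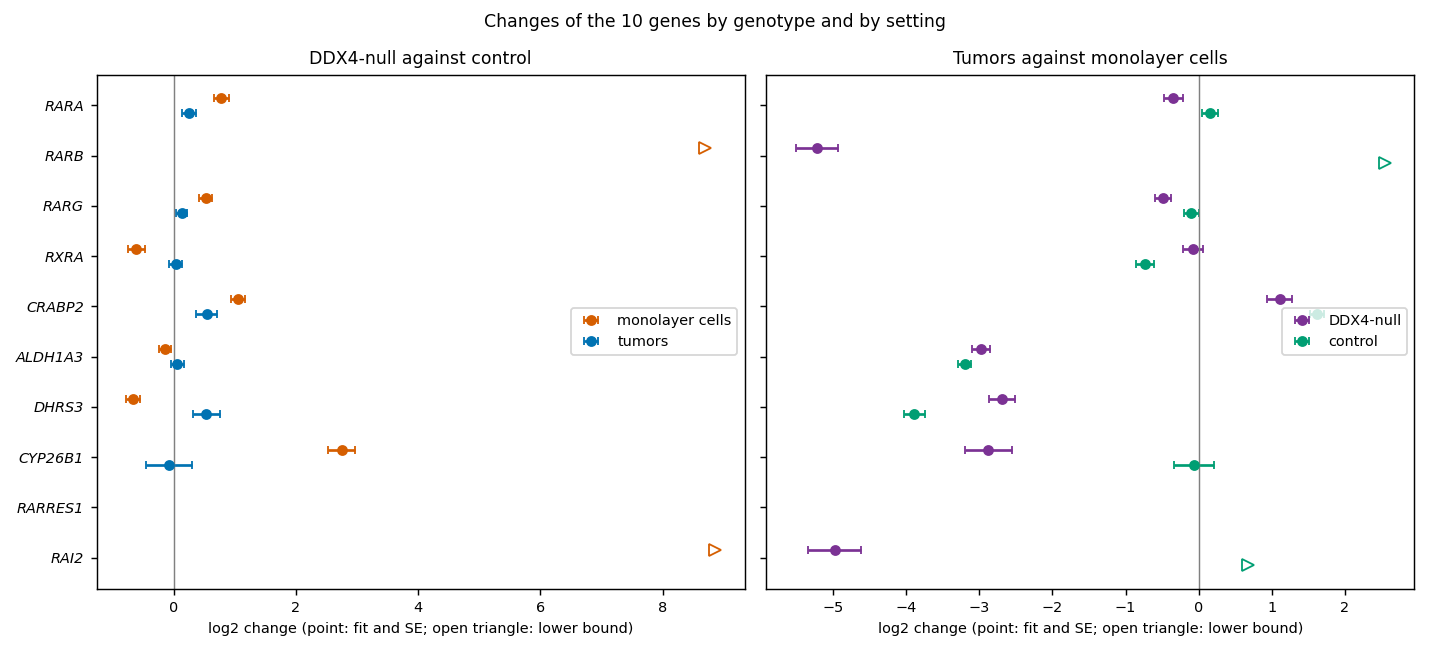
Log2 difference of each of the 10 genes (x axis), with DDX4-null against control in the left panel and tumors against monolayer cells in the right panel. Points and whiskers are the edgeR estimate and SE, open triangles are lower bounds where the second group had 0 counts, and genes below the filter have no point; ALDH1A3 and DHRS3 lie between -3.89 and -2.69 in the right panel for both genotypes.

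The order of the 10 genes by level per length, in CPM per kilobase of annotated exon, differed between settings. In DDX4-null cells ALDH1A3 led with 221, followed by CRABP2 with 71.1, DHRS3 with 31.2, RARG with 14.1, RAI2 with 8.61, RARA with 6.78, RARB with 5.33, RXRA with 2.86, CYP26B1 with 1.95 and RARRES1 with 0.0578 CPM per kilobase. Neighbours in this order did not overlap between libraries except RAI2 with RARA and RXRA with CYP26B1. In control cells ALDH1A3 led with 244 CPM per kilobase, followed by DHRS3 with 49.6 and CRABP2 with 34.2, and RARB and RAI2 stood last at 0. Tumors had CRABP2 on top, with 152 CPM per kilobase in DDX4-null tumors and 105 in control tumors, then ALDH1A3 with 27.7 in DDX4-null tumors and 26.5 in control tumors. Of the RARs in tumors, RARG was the highest, with 9.99 CPM per kilobase in DDX4-null tumors and 9.08 in control tumors, above RARA, with 5.28 in DDX4-null tumors and 4.40 in control tumors, and RARB, with 0.153 in DDX4-null tumors and 0.0731 in control tumors.

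Other genes of the pathway, in 4 lists without the 10 genes, were called in both directions in monolayer. So were all genes tested, and few of either were called between the tumors. For receptors and coregulators, edgeR called 4 of 13 tested genes higher and 3 lower in DDX4-null cells against control cells, with a median log2 difference of 0.11 beside 0.02 over all genes. For uptake, binding and storage of retinoids it called 4 of 8 higher and 3 lower (median 0.09), and for metabolism 5 of 14 higher and 6 lower (median -0.00). For genes known to respond to retinoic acid it called 7 of 13 higher and 4 lower (median 0.36). Among all genes tested, 35.0% were called higher and 32.3% lower (67.3% in all), and nothing is read from the counts by list. The lists were drawn up with earlier results of these data known, and most genes named from them have the smallest p-values of their list. The p-values printed for named genes therefore describe genes picked from these same data and are not independent tests.

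The coactivator NCOA3 fell to 123 ± 13.8 CPM in DDX4-null cells against 221 ± 12.6 CPM in control cells (log2 -0.84 ± 0.10, adjusted p = 5.25e-07). TBL1XR1, a subunit of corepressor complexes, changed by -0.50 ± 0.12 (SE) on the log2 scale. Retinoid binding and storage genes moved apart: RBP4, the plasma carrier of retinol, fell to 3.27 ± 0.821 CPM in DDX4-null cells against 38.4 ± 3.32 CPM in control cells (log2 -3.57 ± 0.15, adjusted p = 1.63e-13). LRAT, which esterifies retinol for storage, had 77 counts in DDX4-null cells against 1 in control cells, a ratio of 65.5 with a counting interval of 11.4 to 2620. PNPLA4, a retinyl ester hydrolase, rose by 0.53 ± 0.10 (SE) on the log2 scale.

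Among the enzymes, DHRS9, a retinol dehydrogenase, fell to 4.09 ± 0.749 CPM in DDX4-null cells against 47.8 ± 8.29 CPM in control cells (log2 -3.54 ± 0.15, adjusted p = 1.65e-13). CYP26A1, the close relative of CYP26B1, had 223 counts in DDX4-null cells against 4 in control cells (log2 5.40 ± 0.45, adjusted p = 2.8e-09). ALDH1A1, which makes retinoic acid as ALDH1A3 does, had 100 counts in DDX4-null cells against 0 in control cells, at least 28.3-fold over the floor of the group. CYP26C1, the other member of the CYP26 family, had 0 counts in both kinds of cells. Of the responsive genes, GPRC5A, a receptor named for its induction by retinoic acid, rose to 921 ± 58.3 CPM in DDX4-null cells against 334 ± 25.2 CPM in control cells (log2 1.46 ± 0.10, adjusted p = 1.29e-10). TGM2, tissue transglutaminase, rose to 483 ± 34.6 CPM in DDX4-null cells against 203 ± 13.6 CPM in control cells (log2 1.25 ± 0.10, adjusted p = 8.62e-10). TNFAIP2 fell to 31.6 ± 1.60 CPM in DDX4-null cells against 81.2 ± 6.79 CPM in control cells.

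Between DDX4-null and control tumors, edgeR called 0 of 13 receptors and coregulators, 0 of 9 uptake, binding and storage genes, 1 of 12 metabolism genes and 1 of 13 responsive genes, with 2.09% of all genes called. DESeq2 called 0, 0, 1 and 2 in the same lists. TGM2 had 29.0, 29.7, 24.1 and 19.9 CPM in DDX4-null tumors against 53.8, 57.1, 61.7 and 57.7 CPM in control tumors (log2 -1.17 ± 0.12, adjusted p = 0.00229 by edgeR). Every DDX4-null tumor was below every control tumor for TGM2, the opposite of its direction in monolayer, and the difference between both genotype effects was -2.42 ± 0.15 on the log2 scale (adjusted p = 1.98e-10 by edgeR). RDH10, the retinol dehydrogenase that starts retinoic acid synthesis, had 75.2, 73.0, 83.8 and 63.2 CPM in DDX4-null tumors against 58.3, 40.8, 54.6 and 51.7 CPM in control tumors (log2 0.52 ± 0.12, adjusted p = 0.049 by edgeR). This RDH10 call was lost under 8 of 14 alternatives, with adjusted p-values up to 0.13.

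RBP4 and DHRS9, lower in DDX4-null monolayers, were not called between tumors. RBP4 averaged 63.0 ± 11.5 CPM in DDX4-null tumors and 50.5 ± 5.50 CPM in control tumors, with an adjusted p of 0.207 by edgeR, and DHRS9 averaged 7.16 ± 1.95 CPM in DDX4-null tumors and 5.85 ± 0.645 CPM in control tumors, with an adjusted p of 0.432 by edgeR. The genotype effect in tumors minus that in monolayer was 3.89 ± 0.22 for RBP4 (adjusted p = 3.85e-11 by edgeR) and 3.83 ± 0.26 for DHRS9 (adjusted p = 4.1e-10 by edgeR) on the log2 scale. It was also called for BTG2, an antiproliferative gene, at -2.22 ± 0.32 (adjusted p = 8.72e-06 by edgeR), and for the nuclear receptor corepressor NRIP1 at -0.66 ± 0.16 (adjusted p = 0.00147 by edgeR). GPRC5C, another GPRC5 receptor, differed the other way, at 1.35 ± 0.19 (adjusted p = 7.5e-06 by edgeR). These genes were picked by their p-values in this same comparison. RBP4 and DHRS9 also had the smallest p of their lists in monolayer, whose effect is part of the difference, so these p-values are a description. Over the lists, edgeR called this difference higher for 3 and lower for 4 of 13 receptors and coregulators, for 2 and 3 of 10 uptake genes, for 6 and 2 of 15 metabolism genes, and for 4 and 5 of 13 responsive genes. Among all genes tested 26.0% were called higher and 26.8% lower (52.8% in all), and on library totals the metabolism genes divided into 4 higher and 4 lower.

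TGM2 fell by 4.22 in DDX4-null tumors against DDX4-null cells and fell by 1.81 in control tumors against control cells on the log2 scale. RDH10 fell by 3.25 in DDX4-null tumors against DDX4-null cells and fell by 4.34 in control tumors against control cells on the log2 scale, the same direction as ALDH1A3 and DHRS3. SDR16C5, another retinol dehydrogenase, fell by 3.05 in DDX4-null tumors against DDX4-null cells and fell by 2.67 in control tumors against control cells. CYP26A1 fell by 3.72 ± 0.43 (SE) on the log2 scale in DDX4-null tumors against DDX4-null cells, and had 7 counts in control tumors against 4 in control cells. RBP4 rose by 4.30 ± 0.20 (SE) in DDX4-null tumors against DDX4-null cells, where DDX4-null monolayers had been low. Among receptors and coregulators, NRIP1 fell by 1.40 in DDX4-null tumors against DDX4-null cells and fell by 0.75 in control tumors against control cells. In this list 2 of 13 genes rose and 7 fell in DDX4-null tumors against DDX4-null cells, and 2 of 13 rose and 6 fell in control tumors against control cells. Of the uptake genes 3 of 9 rose and 4 fell in DDX4-null tumors against DDX4-null cells, and 4 of 9 rose and 4 fell in control tumors against control cells. Of the metabolism genes 4 of 15 rose and 5 fell in DDX4-null tumors against DDX4-null cells, and 2 of 13 rose and 6 fell in control tumors against control cells, or 4 and 5 of the same 13 on library totals. Of the responsive genes 2 of 12 rose and 7 fell in DDX4-null tumors against DDX4-null cells, and 2 of 13 rose and 7 fell in control tumors against control cells by edgeR. Over all genes tested, 34.6% were called higher and 35.3% lower in the DDX4-null comparison. In the control comparison 33.9% were called higher and 31.0% lower, and nothing is read from the counts by list. GPRC5B, an orphan receptor of the GPRC5 family, fell by 2.32 in DDX4-null tumors and fell by 2.28 in control tumors on the log2 scale.

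**Figure D4:**
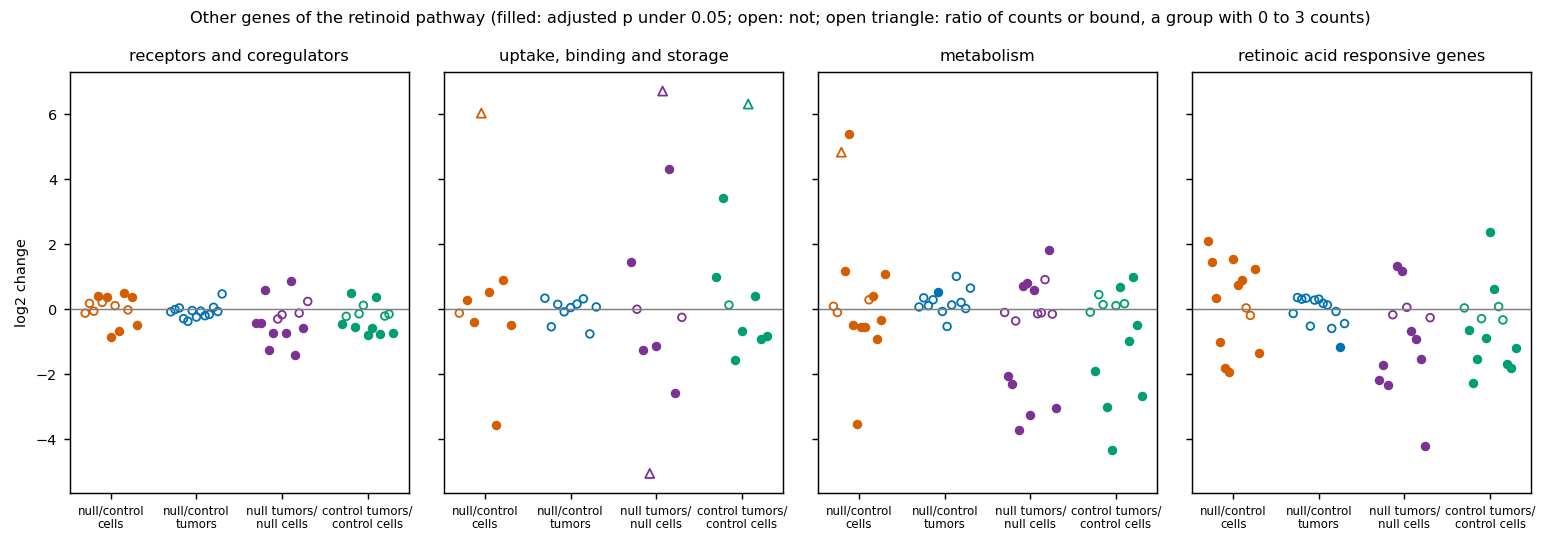
Log2 differences (y axis) of the other retinoid pathway genes in 4 lists, 1 panel a list, for DDX4-null against control cells, DDX4-null against control tumors, DDX4-null tumors against DDX4-null cells and control tumors against control cells. Filled points were called by edgeR, open points were not, and open triangles are ratios of scaled counts or bounds where a group had 0 to 3 counts; in the tumor comparison RDH10 at 0.52 and TGM2 at -1.17 are the only filled points.

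RAI2 had the widest range of group means among the 10 genes, 5.52 on the scale of log2(CPM + 0.5), and RARB followed with 5.33. Among 13226 genes searched, those whose log2 levels were most like RAI2 over the 16 libraries were EYA2 (Pearson r = 0.997), ATP2B2 (0.994), ZNF536 (0.992), FXYD6 (0.990) and TENM3 (0.990). These are correlations over libraries that fall into 4 groups, with depth and group shared, and they describe the pattern only. EYA2 averaged 0.828 CPM in DDX4-null tumors, 0.137 CPM in control tumors, 18.7 CPM in DDX4-null cells and 0.0304 CPM in control cells. TENM3 averaged 3.28 CPM in DDX4-null tumors, 1.39 CPM in control tumors, 43.8 CPM in DDX4-null cells and 1.71 CPM in control cells.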

How the data were processed

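The deposited table holds unnormalized read counts per Ensembl gene for 16 libraries. RNA was cleared of DNA with DNase and made into libraries with the TruSeq Stranded mRNA kit, per the labels' protocols. Trimmomatic 0.39, STAR 2.7.10a, featureCounts 2.0.3 and the build GRCh37 are named per the submitters' processing notes. Not given in the sources used here are the annotation, the strand setting and whether host reads were removed, so overlapping or antisense genes and host RNA can share counts. Symbols came from a gene name table (19446 IDs) and GENCODE v29 (65 IDs), and 845 IDs had none. Exon lengths are those of GENCODE v29 on GRCh38, matched by ID.

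The 10 genes and the pathway and marker lists were chosen with earlier results of these data known. Tests across genes used edgeR 4.0.16 in R 4.3.3 (quasi-likelihood), with TMM scaling, filterByExpr and Benjamini-Hochberg adjustment over all genes tested, called at 0.05. Comparisons were of DDX4-null against control within each setting, of tumors against cells within each genotype, and of both genotype effects in a 4-group model. SE is the log2 difference divided by the square root of F. RARB, RARRES1 and RAI2, below the filter in tumors, were compared there by exact permutation, chosen after seeing the data. Of each pathway list, up to 3 called genes with the smallest p and at least 1 CPM in the higher group were named per comparison, and other genes of the lists (RBP4 and DHRS9 in tumors) after their values were seen. Some genes that this rule names are not reported here. The 5 genes most like the gene of widest range were named by Pearson correlation. The alternatives were leaving out each library, a replicate block, DESeq2 1.42.0, library totals in place of TMM, other filters, a fit of all 16 libraries and centring on chromosomes. The labels do not tie a group's libraries to separate cultures or animals, so a p-value here covers the spread between these libraries alone, which may be technical. No pair of libraries agreed within sampling noise (lowest chi-square per degree of freedom 3.65). Intervals and floors cover counting error only. Steps were tested on simulated data.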

Additional observations from a re-analysis of the deposited data

Results flagged for a closer look

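RARB in DDX4-null tumor 1, at 1.24 CPM, stood apart from the other 3 DDX4-null tumors, and RARRES1 in control tumor 2, at 0.235 CPM or 4 counts, stood apart from the other 3 control tumors. Both were singled out by the gap to the nearest library relative to the range of the group. In all, 38 groups of 4 libraries were checked in this way. Chance gives about 1 in 20 for normally distributed values, a rate that need not hold for the few counts of RARB and RARRES1 in tumors.

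The DDX4-null effect in tumors differed from that in monolayer for the 11 pathway genes outside the 10 that are listed here. The test was that of the difference in the 4-group edgeR model, where 52.8% of all genes were called. These 11 were picked from the called genes with the smallest p of their list in this same test. They are not all the pathway genes called, so their number gives no share of the pathway. The counts by list are given in the Results. ALDH1A1, picked by the same rule, is not listed here and had 0 counts in control cells. The log2 effect in tumors minus that in monolayer was 3.89 for RBP4, 3.83 for DHRS9, 1.35 for GPRC5C, 1.08 for RDH10, 0.97 for TBL1XR1 and 0.56 for SCARB1. It was -2.42 for TGM2, -2.22 for BTG2, -1.64 for RBP7, -0.68 for MED1 and -0.66 for NRIP1. The 10 genes are left out of this test, since their monolayer values chose them.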

How the results depend on the processing

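The number of genes called between DDX4-null and control tumors was 270, and it was the count that moved most: DESeq2 gave 880, the replicate block 425 and the 4-group model of all 16 libraries 808, and leaving out 1 library gave 26 to 289. The count was 129 when either DDX4-null tumor 2 or DDX4-null tumor 3 was left out, and 134, 47 and 26 when control tumors 1, 2 and 3 were left out in turn. The counts of the other 4 comparisons stayed within 1.5 times of their value in every alternative run. Same-numbered libraries had correlations of their deviations between -0.231 and 0.394, so the numbers were not taken as pairs, and the block changed no call of the 7 genes tested in tumors. On library totals the share of calls that were higher was 66% against 52.2% between control tumors and control cells (median shift of all genes 0.19 against 0.02), 36.6% against 47% between tumors, and 38.2% against 49.2% for the difference of genotype effects (median -0.16 against -0.02). In tumors RXRA turned to -0.04 on library totals, -0.03 without DDX4-null tumor 1 and -0.00 without control tumor 3, and ranged over -0.03 to 0.13 when single libraries were left out. CYP26B1 turned to 0.15, 0.10, 0.01 and 0.06 without DDX4-null tumor 3, DDX4-null tumor 4, control tumor 1 and control tumor 4, and ranged over -0.40 to 0.15 when single libraries were left out. RARRES1 turned to 0.01 without control tumor 2, with a range of -0.19 to 0.01 over single libraries left out. The RARB and RAI2 differences of 0.54 and 1.19, without DDX4-null tumors 4 and 3, reached the smallest possible exact permutation p of 0.0286, and over single libraries left out they ranged over 0.13 to 0.54 and 0.71 to 1.19. The cause was not tested. RARB, RAI2 and RARRES1 had at most 22 counts in any tumor library, so counting error weighs on their differences there.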
